A study of Mus musculus with 12 samples.

Results

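Lysosome genes of irradiated mouse intestinal cells were taken as the known genes that the deposited gene table places on the KEGG lysosome pathway map. The annotation held 180 known genes, of which 1 was set aside beforehand and is not analysed here, so 179 of the 33625 genes in the table are described. The cells were MODE-K, a wild-type line derived from mouse small intestinal epithelium, exposed to gamma rays from a cobalt source, and RNA was sequenced in 12 libraries. They formed 4 groups of 3 libraries: cells collected 48 h after 12 Gy (12Gy_48h), cells collected 24 h after 12 Gy (12Gy_24h), cells collected 48 h after 4 Gy (4Gy_48h) and unirradiated cells (control). All groups were the same line under the same culture conditions, and the labels do not say whether the 3 libraries of a group were separate cultures, so p-values rest on how far these libraries differ from each other, and part of that spread may be technical. The treatment protocol lists 0 h among the collection times and no control label gives a time, so radiation and time in culture cannot be told apart in a comparison with control.

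The lysosome is the acidic organelle in which cells break down material delivered by endocytosis and autophagy. Its lumen holds proteases, glycosidases, sulfatases and lipases that work at low pH, a proton pump in the membrane keeps that pH, and transporters such as NPC1 export the products. New hydrolases are carried from the Golgi by mannose 6-phosphate receptors and clathrin adaptors, and many of these genes share a promoter element, called CLEAR, that is bound by the transcription factor TFEB and its relatives when nutrients are scarce or lysosomes are damaged.

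Each library held between 3616416 and 4831641 reads assigned to genes. Of the 7 epithelial markers looked up, Epcam had 2 reads, Cdh1 2, Vil1 3, Krt19 9, Krt8 10 and Cldn7 0 over all 12 libraries, and Krt18 had 5 to 62 reads per library, so the defining markers of the labelled cell type were at or near 0. The fibroblast collagen gene Col1a2 had 648 to 1228 reads per library. The leukocyte markers Ptprc, Adgre1 and Cd3e had no read. The table also lists assembled loci as new, of which 4898 were tested. Against control, 2611 of them passed as lower and 122 as higher at 12Gy_48h. At 12Gy_24h 3954 passed as lower and 135 as higher, and at 4Gy_48h 1834 and 65. With all genes scaled together, the median log2 fold change of known genes was 0.20 at 12Gy_48h, 0.23 at 12Gy_24h and 0.14 at 4Gy_48h. Quasi-likelihood tests in edgeR, two-sided, were for this reason run both over all genes and over known genes scaled and tested alone. To pass, a gene needed an adjusted p (Benjamini-Hochberg, over every gene tested in that fit) under 0.05, and rose or fell is written only of genes that passed in both fits. Fold changes are log2 values from the fit over all genes, with their SE, unless known genes alone are named.

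Of the 179 genes, 146 had reads and 113 had enough to be tested. The 66 that were not tested had at most 80 reads in total over the 12 libraries, and 33 of them had none. The untested genes included 15 of 24 proteases, among them Ctsk, the collagen-degrading cathepsin of osteoclasts, with 72 reads. They also included Idua, the iduronidase, with 80 reads and Galc, the galactosylceramidase, with 74. No tested gene owed its place to reads in a single group. By role, 9 proteases, 15 glycosidases, 7 sulfatases or sulfatase activators, 8 hydrolases of lipids, nucleic acids or phosphate esters, 1 activator protein, 22 membrane proteins and transporters, 8 proton pump subunits and 28 sorting and trafficking genes were tested. A further 15 tested genes, such as Tinagl1, a secreted matricellular protein, and Tmem147, a protein of the endoplasmic reticulum membrane, carried a lysosome entry by sequence similarity without being established lysosomal genes.

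Lysosome genes took a larger share of the known-gene reads after irradiation. The share was 1.28, 1.37 and 1.40% at 12Gy_48h, 1.25, 1.31 and 1.46% at 12Gy_24h, 1.21, 1.11 and 1.14% at 4Gy_48h and 0.945, 1.09 and 1.02% in control, so the libraries of all irradiated groups lay above every control library. Ctsl, the cysteine protease cathepsin L, made up 31.5 ± 2.42% of these reads at 12Gy_48h, 37.8 ± 2.80% at 12Gy_24h, 31.9 ± 1.76% at 4Gy_48h and 24.1 ± 2.79% in control (SD, n = 3 each). Without Ctsl the share was 0.925 ± 0.0236% at 12Gy_48h, 0.832 ± 0.0310% at 12Gy_24h, 0.784 ± 0.0301% at 4Gy_48h and 0.772 ± 0.0264% in control (SD, n = 3 each), so the 3 libraries of 12Gy_48h had the highest share once Ctsl was removed. This order depended on the scaling. In CPM after TMM scaling over all genes, the sum without Ctsl was 7075, 7442 and 7275.5 at 12Gy_48h. It was 7234, 7604.5 and 8193.5 at 12Gy_24h, higher on average than at 12Gy_48h. No test was run on the share or on this sum. The summed level of 6 fibroblast markers was 240 to 296 CPM per library at 12Gy_48h, 286 to 370 at 12Gy_24h, 259 to 283 at 4Gy_48h and 177 to 205 in control. Most of its reads came from Col1a2, with 2822 over the 3 libraries of 12Gy_48h, 3429 at 12Gy_24h and 2238 in control. In the same order Col1a1 had 174, 99 and 109, Pdgfra 24, 13 and 15 and Pdgfrb 29, 10 and 36. Dcn had 9, 0 and 6 and Col3a1 1, 5 and 1, so the other markers did not all move with Col1a2. The summed level of the 7 epithelial markers, mostly from Krt18, was 7.13 to 8.63 CPM at 12Gy_48h, 12.5 to 17.6 at 12Gy_24h, 5.67 to 7.27 at 4Gy_48h and 1.28 to 5.80 in control. The part of either sum in the results was not tested. Only relative RNA levels were measured in these bulk libraries: fewer cells of a kind and less RNA per cell cannot be told apart.

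**Figure D1:**
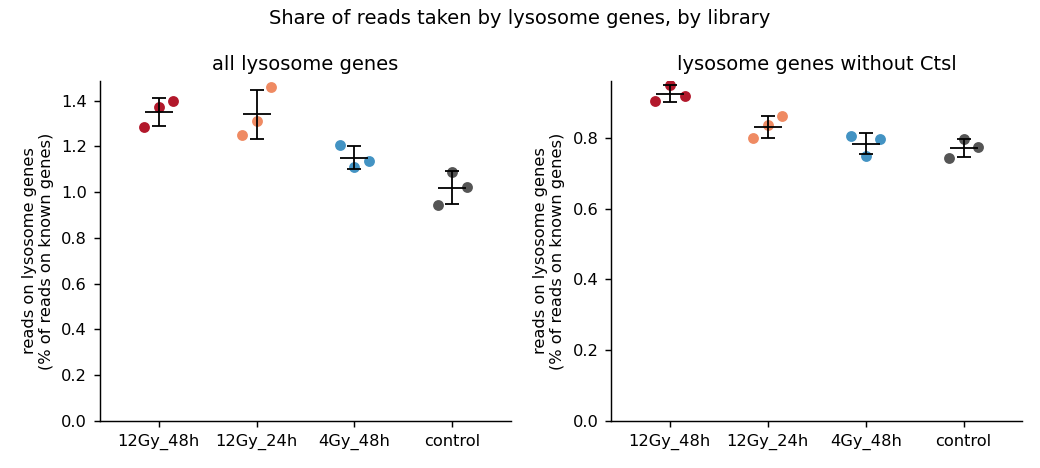
Share of known-gene reads that fell on lysosome genes (y axis, percent) in each library, with group means and SD (black lines), for all 179 genes on the left and without Ctsl on the right. On the left all irradiated groups lie above control, and on the right 12Gy_48h, at 0.925% on average, stands above the other 3 groups. In CPM scaled over all genes 12Gy_48h is not the highest without Ctsl.

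At 48 h after 12 Gy, 16 lysosome genes rose against control, among them the proteases Ctsa, Ctsd and Ctsl, the cholesterol transporters Npc1 and Npc2 and the pump subunit Tcirg1. In the fit over all genes 34 of 113 lysosome genes (30.1%) passed as higher and 2 as lower, against 18.2% and 3.74% of the tested known genes and 12.9% and 20.2% of all tested genes. Scaled among known genes alone, 16 of the 113 (14.2%) passed as higher and 3 as lower, against 6.76% and 8.04% of known genes. Their median fold change was 0.36 over all genes and 0.17 among known genes alone, where the median of all known genes was 0.0093. The 16 that passed as higher in both fits included Ctsa, Ctsd and Ctsl among the proteases, the glycosidase Gla, the acid lipase Lipa, the saposin precursor Psap, Npc1, Npc2, Mcoln1, Cln3 and Cd68 in the membrane or its transport, the pump subunit Tcirg1, the trafficking genes Ap3d1 and Clta, and Fam189b. Each of the 16 passed with every single library left out. In each the 3 libraries of 12Gy_48h lay above the 3 controls, which follows in large part from picking them by this comparison and adds no support. Genes that did not pass, such as Cd63 and Ctsz, also lay above the 3 controls.

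**Figure D2:**
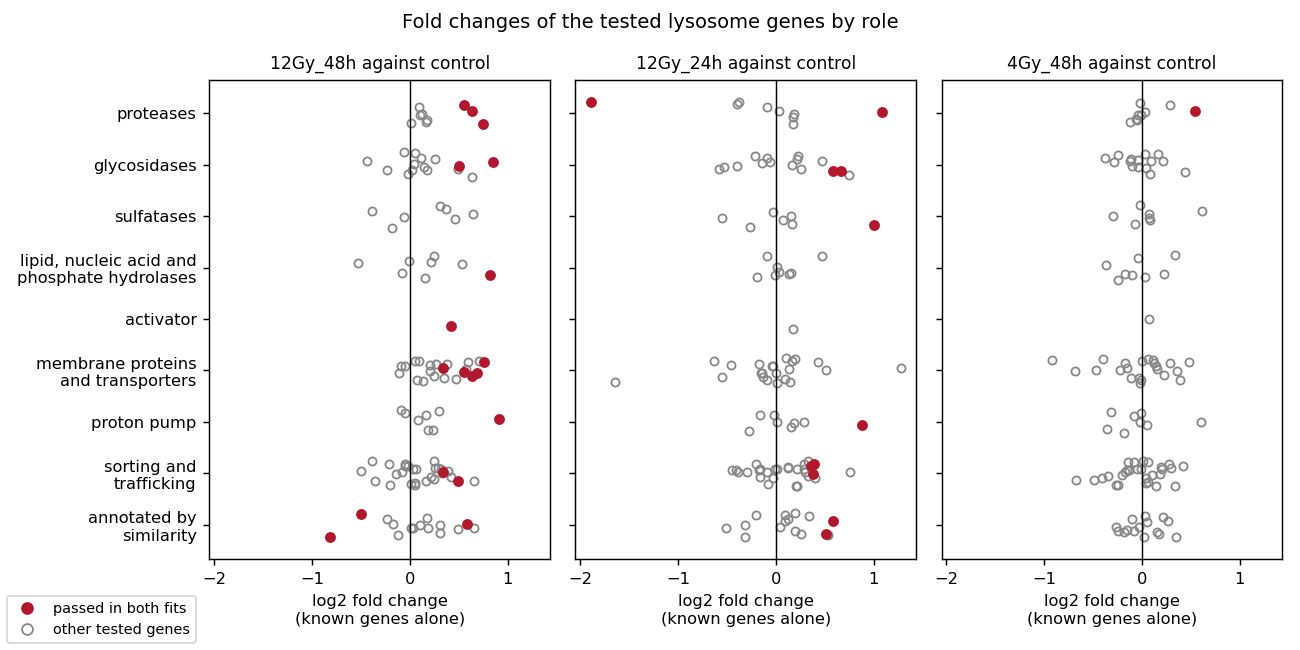
Log2 fold changes of the 113 tested lysosome genes (x axis, from the fit to known genes alone) by role, for 12Gy_48h, 12Gy_24h and 4Gy_48h against control. Filled points passed in both fits: 16 higher and 2 lower at 12Gy_48h, 10 higher and 1 lower at 12Gy_24h, and 1 higher at 4Gy_48h.

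Among the proteases, 4 of 9 (44.4%) passed as higher over all genes and 3 (33.3%) rose. Of known genes 18.2% passed as higher over all genes and 6.76% among known genes alone. Ctsa, a serine carboxypeptidase that also stabilizes β-galactosidase and sialidase, had 77.7, 84.8 and 84.2 CPM at 12Gy_48h, 51.5, 54.6 and 65.0 at 12Gy_24h, 60.2, 54.8 and 59.1 at 4Gy_48h and 43.0, 47.4 and 38.3 in control. The 12Gy_48h libraries stood above all others, and the fold change against control was 0.94 ± 0.13 (SE), adjusted p = 5.39e-05 over all genes and 0.000762 over known genes alone. Ctsd, the main aspartic protease of lysosomes (chromosome 7, 142375911 to 142388038 in GRCm38), had 356, 400.4 and 371 CPM at 12Gy_48h, 273, 302 and 321 at 12Gy_24h, 268, 215 and 243 at 4Gy_48h and 225, 231 and 220.2 in control, and its fold change was 0.74 ± 0.10 (SE), adjusted p = 7.72e-05 over all genes and 0.00174 over known genes alone. Ctsl (chromosome 13, 64359337 to 64370890) had 2965, 3292 and 3778 CPM at 12Gy_48h, 4091, 4315 and 5695 at 12Gy_24h, 3364, 2961 and 2774 at 4Gy_48h and 1626, 2142 and 1879 in control. Here all 9 irradiated libraries exceeded the controls and the highest values were those of 12Gy_24h, with 0.83 ± 0.13 (SE) at 12Gy_48h against control (adjusted p = 0.000171 over all genes and 0.00282 over known genes alone). Ctsb, another cysteine cathepsin, had 363, 376 and 395 CPM at 12Gy_48h, against 327, 266 and 289 in control, and passed over all genes alone (fold change 0.36 ± 0.12, adjusted p = 0.0243, and 0.31 over known genes alone). The carboxypeptidase Ctsz (0.29, adjusted p = 0.0579) and the tripeptidyl peptidase Tpp1 (0.28, adjusted p = 0.0793) passed in neither fit.

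**Figure D3:**
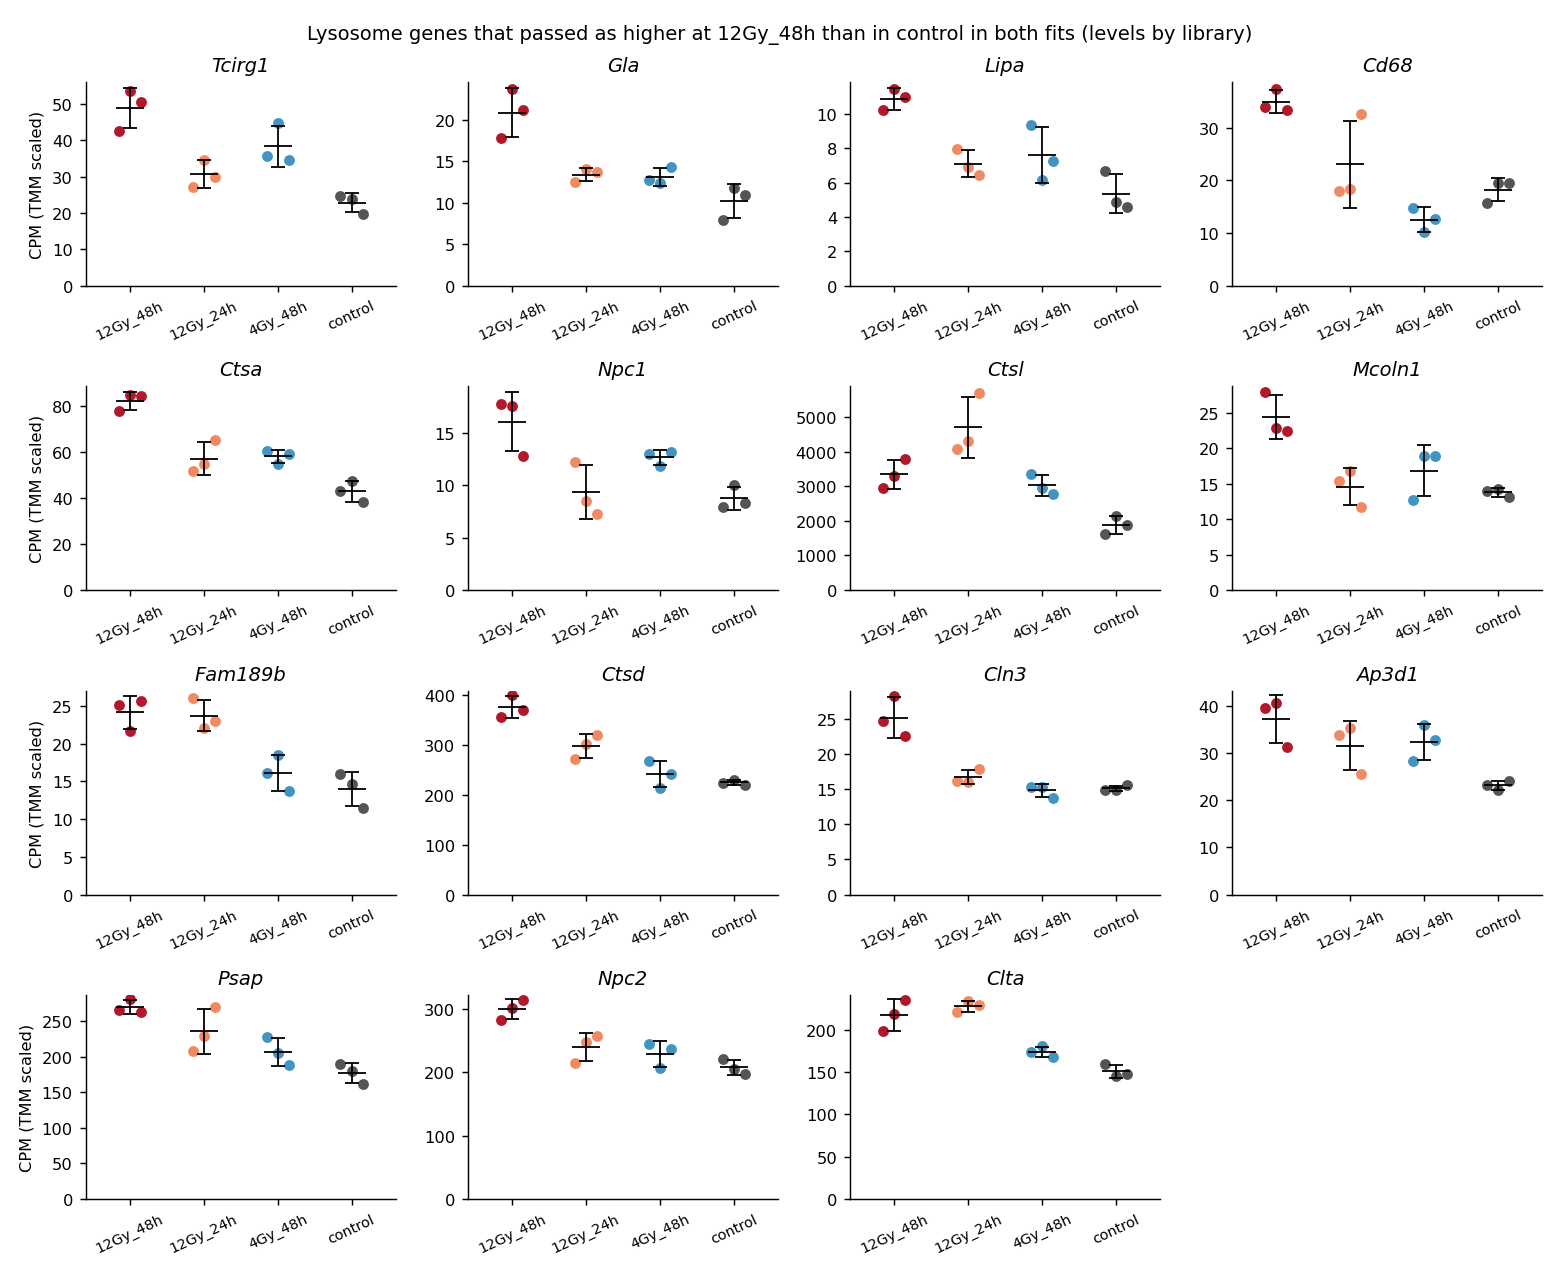
Levels of 15 lysosome genes that passed as higher at 12Gy_48h than in control in both fits (y axis, CPM after TMM scaling, each panel with its own scale from 0), with the mean and SD of each group in black. In every panel the 12Gy_48h points lie above the control points, while they overlap the 12Gy_24h points for Psap, Fam189b, Ap3d1 and Clta and lie below them for Ctsl.

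Of 15 glycosidases, 3 (20%) passed as higher over all genes and 2 (13.3%) rose, against 18.2% of known genes over all genes and 6.76% among known genes alone. Gla, the α-galactosidase that removes galactose from globotriaosylceramide, had 17.8, 23.7 and 21.2 CPM at 12Gy_48h, 12.5, 14.1 and 13.7 at 12Gy_24h, 12.7, 12.3 and 14.3 at 4Gy_48h and 7.95, 11.8 and 11.0 in control. It was highest in the 12Gy_48h libraries, with a fold change of 1.04 ± 0.18 (SE), adjusted p = 0.00046 over all genes and 0.0045 over known genes alone. The sialidase Neu1 passed over all genes alone (0.67 ± 0.21, adjusted p = 0.0187, and 0.119 over known genes alone). β-galactosidase Glb1 (0.30, adjusted p = 0.157), the fucosidase Fuca1 (0.33, 0.0969), the β-glucuronidase Gusb (0.24, 0.374) and Hexa, the α subunit of β-hexosaminidase (-0.047, 0.82), did not pass.

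Of 8 hydrolases of lipids, nucleic acids or phosphate esters, 3 (37.5%) passed as higher over all genes and 1 (12.5%) rose. The shares of known genes were 18.2% over all genes and 6.76% among known genes alone. Lipa, the acid lipase that frees cholesterol from its esters, had 10.2, 11.5 and 11.0 CPM at 12Gy_48h, 7.96, 6.89 and 6.42 at 12Gy_24h, 9.35, 6.17 and 7.28 at 4Gy_48h and 6.66, 4.87 and 4.55 in control. Lipa had a fold change of 1.00 ± 0.23 (SE), adjusted p = 0.00294 over all genes and 0.0184 over known genes alone. Npc2, the soluble protein that hands cholesterol to NPC1, had 282, 302 and 314 CPM at 12Gy_48h, 214, 247 and 257 at 12Gy_24h, 245, 206 and 236 at 4Gy_48h and 220.3, 205 and 197 in control. Npc2 had a fold change of 0.53 ± 0.11 (SE), adjusted p = 0.0013 over all genes and 0.0323 over known genes alone. Npc1, the cholesterol exporter of the limiting membrane, had 17.8, 17.6 and 12.8 CPM at 12Gy_48h, 12.2, 8.54 and 7.29 at 12Gy_24h, 13.0, 11.8 and 13.2 at 4Gy_48h and 7.95, 9.99 and 8.31 in control. Npc1 had a fold change of 0.88 ± 0.21 (SE), adjusted p = 0.00471 over all genes and 0.0338 over known genes alone. In these genes the 12Gy_48h libraries lay above both the controls and the 12Gy_24h libraries. Psap, the precursor of the saposins that present sphingolipids to hydrolases, had 266, 281 and 263 CPM at 12Gy_48h, 208, 229 and 270.1 at 12Gy_24h, 227, 205 and 189 at 4Gy_48h and 189.5, 180.0 and 162 in control. Psap had a fold change of 0.61 ± 0.12 (SE), adjusted p = 0.000872 over all genes and 0.0142 over known genes alone. The phospholipase Pla2g15 passed over all genes alone (0.72 ± 0.20, adjusted p = 0.0105, and 0.0715 over known genes alone), and so did the acid sphingomyelinase Smpd1 (0.41 ± 0.15, 0.0474 and 0.339). Acid ceramidase Asah1 passed as lower among known genes alone (-0.53, adjusted p = 0.0397, and 0.124 over all genes).

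All 22 tested membrane proteins and transporters had a positive fold change at 12Gy_48h over all genes and 19 of 22 had one among known genes alone. Of all 113 tested lysosome genes, 101 and 83 had one. Known genes as a whole were shifted up over all genes, with a median of 0.20, and by 0.0093 among known genes alone. How many known genes had a positive fold change was not counted. Of the 22 membrane proteins and transporters, 10 (45.5%) passed as higher over all genes and 5 (22.7%) rose. The shares of known genes were 18.2% over all genes and 6.76% among known genes alone. Mcoln1, the calcium channel TRPML1 of the lysosomal membrane, had 28.0, 22.9 and 22.5 CPM at 12Gy_48h, 15.4, 16.8 and 11.7 at 12Gy_24h, 12.7, 19.0 and 18.9 at 4Gy_48h and 14.0, 14.3 and 13.1 in control. Mcoln1 had a fold change of 0.82 ± 0.19 (SE), adjusted p = 0.00293 over all genes and 0.0259 over known genes alone. Cln3, the membrane protein lost in juvenile Batten disease, had 24.6, 28.3 and 22.5 CPM at 12Gy_48h, 16.2, 16.0 and 17.8 at 12Gy_24h, 15.3, 15.3 and 13.8 at 4Gy_48h and 14.8, 14.9 and 15.5 in control. Cln3 had a fold change of 0.74 ± 0.15 (SE), adjusted p = 0.00117 over all genes and 0.0135 over known genes alone. Cd68, a LAMP family glycoprotein often used as a macrophage marker, had 34.0, 37.4 and 33.5 CPM at 12Gy_48h, 18.0, 18.5 and 32.7 at 12Gy_24h, 14.8, 10.1 and 12.7 at 4Gy_48h and 15.7, 19.5 and 19.6 in control. Cd68 had a fold change of 0.94 ± 0.20 (SE), adjusted p = 0.00225 over all genes and 0.0166 over known genes alone. Replicate 3 of 12Gy_24h was close to the 12Gy_48h level of Cd68, while the rest of 12Gy_24h resembled control. The summed level of the 7 immune markers looked up beside Cd68 was 7.85 to 12.0 CPM per library at 12Gy_48h, 6.90 to 11.9 at 12Gy_24h, 5.97 to 10.8 at 4Gy_48h and 8.60 to 10.5 in control, and Ptprc and Adgre1, which define leukocytes and macrophages, were at 0. Of the 7, 3 were at 0, and most reads came from Lyz2, with 80 reads over the 3 libraries of 12Gy_48h, 76 at 12Gy_24h, 73 at 4Gy_48h and 94 in control. Csf1r, a receptor of macrophages, had 36 reads over the 3 libraries at 12Gy_48h, 21 at 12Gy_24h, 19 at 4Gy_48h and 17 in control, so it was highest where Cd68 was, and its part in the result was not tested. Lamp1, the most used marker of the lysosomal membrane, had 192, 215 and 191 CPM at 12Gy_48h, against 162, 155 and 137 in control and passed over all genes alone (0.40 ± 0.11, adjusted p = 0.00877, and 0.162 over known genes alone). Lamp2 (0.26, 0.177) and the tetraspanin Cd63 (0.095, 0.408) did not pass.

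Of the 8 tested proton pump genes, which here are subunits and accessory proteins of the V-ATPase, 4 (50%) passed as higher over all genes and 1 (12.5%) rose. The shares of known genes were 18.2% over all genes and 6.76% among known genes alone. Tcirg1, the a3 subunit of the membrane sector (chromosome 19, 3896050 to 3907133), had 42.7, 53.5 and 50.4 CPM at 12Gy_48h, 27.1, 34.7 and 30.0 at 12Gy_24h, 35.6, 44.9 and 34.5 at 4Gy_48h and 24.7, 23.8 and 19.8 in control. No 12Gy_48h library overlapped the 12Gy_24h or control libraries, and the fold change against control was 1.10 ± 0.16 (SE), adjusted p = 7.31e-05 over all genes and 0.000719 over known genes alone. The pump subunits Atp6v0a2, Atp6v0b and Atp6v0d1 passed over all genes alone, with 0.49 ± 0.14 (adjusted p = 0.0157, and 0.168 over known genes alone), 0.43 ± 0.15 (0.0356 and 0.297) and 0.38 ± 0.13 (0.0294 and 0.328). The proteolipid subunit Atp6v0c (0.14, 0.312) and Atp6v0a1 (0.27, 0.33) passed in neither fit.

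Of 7 sulfatase genes, 2 (28.6%) passed as higher, both over all genes alone, against 18.2% of known genes. Among them was the arylsulfatase Arsb (0.83 ± 0.32, adjusted p = 0.0491, and 0.164 over known genes alone). Of 28 sorting and trafficking genes, 5 (17.9%) passed as higher over all genes and 2 (7.14%) rose. Both shares were near those of known genes, 18.2% over all genes and 6.76% among known genes alone. Ap3d1, a large subunit of the AP-3 adaptor that routes membrane proteins to lysosomes, had 39.5, 40.8 and 31.4 CPM at 12Gy_48h, 34.0, 35.3 and 25.7 at 12Gy_24h, 28.3, 36.0 and 32.9 at 4Gy_48h and 23.2, 22.3 and 24.1 in control. Ap3d1 had a fold change of 0.68 ± 0.16 (SE), adjusted p = 0.00351 over all genes and 0.0386 over known genes alone. Clta, a clathrin light chain, had 198, 219 and 235 CPM at 12Gy_48h, 221, 233 and 229 at 12Gy_24h, 173, 180.1 and 168 at 4Gy_48h and 159.7, 145 and 148 in control. Clta had a fold change of 0.53 ± 0.10 (SE), adjusted p = 0.000834 over all genes and 0.0198 over known genes alone. In both genes the 12Gy_48h and 12Gy_24h libraries overlapped. Neither receptor for mannose 6-phosphate passed, with fold changes of 0.51 for Igf2r (adjusted p = 0.0763) and 0.10 for M6pr (0.526). Among the genes annotated by similarity, Fam189b rose (0.78 ± 0.17 (SE), adjusted p = 0.00217 over all genes and 0.0187 over known genes alone), while Tmem147 (-0.31 ± 0.11, 0.0383 and 0.00372) and Gm49392 (-0.63 ± 0.21, 0.0263 and 0.0116) fell. The call on Tmem147 was lost without any 1 of the 6 libraries and that on Gm49392 without replicate 2 or 3 of 12Gy_48h or replicate 1 or 3 of control, with adjusted p up to 0.201 and 0.0979. At 12Gy_24h against control Tmem147 passed in the opposite direction, as higher, over all genes alone. It kept that call with every library left out.

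The inner letters of the CLEAR element, TCACGTGA, which contain the E-box core CACGTG, were searched for in promoter windows of 300 bases, from 250 before to 50 after each start site, in RefSeq sequence of GRCm38.p6. Both motifs read the same on either strand. A window was given for 141 of the 179 genes and for 90 of the 113 tested. The 8-letter motif was in 10 of the 90 tested genes (11.1%), against 304 of all 27025 genes with a window (1.12%), and the core was in 24 of the 90 (26.7%), against 8.09% of all genes. Over all 141 lysosome genes with a window, tested or not, the shares were 7.09% and 20.6%. Whether the other genes were expressed was not taken into account. The 10 genes were Ctsa, Ctsd, Cln3, Gla, Mcoln1, Atp6v0d1, Sumf1, Cd164, Igf2r and Gnptg, and the first 5 are the ones that rose at 12Gy_48h. Stretches of 100 bases before the start site are shown for these 5, and for Cd164, a sialomucin of endosomes and lysosomes, and Igf2r, which hold the motif and did not pass in both fits at 12Gy_48h against control. Cd164 and Gnptg are named for the motif alone. Capitals mark the 8-letter motif. They lie at chr2:164833673-164833772, plus strand (Ctsa), chr7:142387873-142387972, minus strand (Ctsd), chr7:126583305-126583404, minus strand (Cln3), chrX:134601156-134601255, minus strand (Gla), chr8:3500419-3500518, plus strand (Mcoln1), chr10:41519366-41519465, plus strand (Cd164) and chr17:12769707-12769806, minus strand (Igf2r), and are written 5′ to 3′ on the strand of the gene.
Ctsa: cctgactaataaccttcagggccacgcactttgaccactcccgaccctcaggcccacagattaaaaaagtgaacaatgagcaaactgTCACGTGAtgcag
Ctsd: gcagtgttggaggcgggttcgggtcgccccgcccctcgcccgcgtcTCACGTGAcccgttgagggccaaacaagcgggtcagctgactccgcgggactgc
Cln3: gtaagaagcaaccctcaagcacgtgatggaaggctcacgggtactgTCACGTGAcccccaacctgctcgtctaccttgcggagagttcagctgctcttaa
Gla: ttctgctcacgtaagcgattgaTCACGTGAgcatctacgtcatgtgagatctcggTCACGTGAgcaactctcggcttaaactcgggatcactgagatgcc
Mcoln1: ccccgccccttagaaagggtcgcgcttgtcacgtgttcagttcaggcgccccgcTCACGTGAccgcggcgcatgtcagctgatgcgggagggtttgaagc
Cd164: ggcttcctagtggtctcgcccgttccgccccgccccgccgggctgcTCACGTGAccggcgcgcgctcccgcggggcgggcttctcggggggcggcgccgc
Igf2r: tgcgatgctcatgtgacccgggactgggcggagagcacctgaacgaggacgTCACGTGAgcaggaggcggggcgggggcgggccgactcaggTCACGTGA

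The motif began 13 bases before the start site in Ctsa, which held another just after the start, 99 in Ctsd, 122 in Cln3 and 46 in Mcoln1, and Gla held it at both 228 and 195 bases before the start. At 12Gy_48h against control, 7 of the 10 genes with the motif passed as higher over all genes and 5 among known genes alone, with a median fold change of 0.69. Of the 66 tested genes whose window lacked even the core, 18 passed over all genes and 8 among known genes alone, with a median of 0.34, and of the 14 with the core and not the 8-letter motif 3 and 1 passed, with a median of 0.40. Between 12Gy_48h and 12Gy_24h, 5 of the 10 were higher in both fits, against 1 of the 14 and 9 of the 66. Between 12Gy_48h and 4Gy_48h the counts were 5 of the 10, 0 of the 14 (4 in edgeR at an unadjusted p under 0.05, and 0 in DESeq2) and 3 of the 66. At 12Gy_24h against control the order was not the same: 3 of the 10, 3 of the 14 and 27 of the 66 passed as higher over all genes, with medians of 0.32, 0.23 and 0.34. DESeq2, also run over all genes, called 3 of the 10. In edgeR among known genes alone 0 of the 10 (1 at an unadjusted p under 0.05), 1 of the 14 and 8 of the 66 passed. At 4Gy_48h against control 1 of the 10, 1 of the 14 and 3 of the 66 passed over all genes, with medians of 0.088, 0.081 and 0.15. These counts describe letters in a window and not binding, and several genes that rose without them, such as Tcirg1, Lipa and Cd68, are in the same plot.

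**Figure D4:**
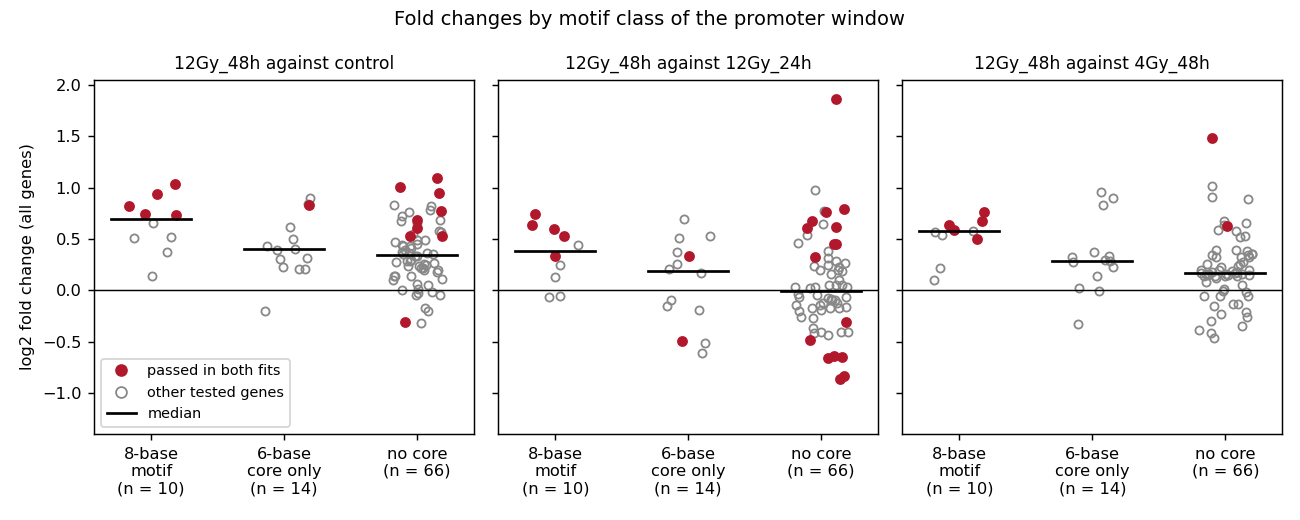
Log2 fold changes from the fit over all genes (y axis) of the 90 tested lysosome genes with a promoter window, split by the 8-base motif (n = 10), the 6-base core without it (n = 14) or neither (n = 66), with medians as black lines. Genes with the 8-base motif have the highest median in each of the 3 comparisons, 0.69 at 12Gy_48h against control, 0.39 against 12Gy_24h and 0.57 against 4Gy_48h, and all of their filled points are above 0. All 3 comparisons use the same 12Gy_48h libraries. The comparisons of 12Gy_24h and 4Gy_48h with control, where these genes do not have the highest median, are not shown.

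At 24 h after 12 Gy, 10 lysosome genes rose against control, with Ctsl at the smallest adjusted p, and 1 fell. Over all genes 40 of 113 lysosome genes (35.4%) passed as higher and 1 as lower, against 26.5% and 3.99% of known genes and 18.5% and 29.4% of all tested genes. Among known genes alone the counts were 10 (8.85%) higher and 4 lower, against 9.15% and 7.91% of known genes, so the share was near the background. The 10 that rose included Ctsl, Gusb, Arsb, Atp6v0a1, Clta, Cltb, Ap3m1, Tinagl1 and Fam189b. Each of the 10 passed with every library left out. In each the 12Gy_24h libraries lay above the controls, which follows in large part from picking them by this comparison. The protease Ctso fell. Tpp1 was lower among known genes alone, with adjusted p = 0.0311, and did not pass over all genes (0.294).

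Ctsl averaged 4700.3 ± 868 CPM at 12Gy_24h and 1882 ± 258 in control (SD, n = 3 each), and its fold change was 1.32 ± 0.13 (SE), adjusted p = 5.53e-07 over all genes and 4.46e-05 over known genes alone. Ctso, a cysteine cathepsin of the same superfamily, went the other way: it had 4.71, 5.09 and 6.53 CPM at 12Gy_48h, 1.59, 1.65 and 1.17 at 12Gy_24h, 5.45, 4.19 and 5.40 at 4Gy_48h and 4.30, 4.35 and 5.63 in control. Ctso had a fold change of -1.66 ± 0.35 (SE), adjusted p = 0.000493 over all genes and 0.000875 over known genes alone. These are low levels, yet the 12Gy_24h libraries were all under the 9 others. Gusb, which removes glucuronic acid from glycosaminoglycans, had 24.3, 23.9 and 29.5 CPM at 12Gy_48h, 39.8, 42.2 and 41.1 at 12Gy_24h, 32.2, 41.0 and 25.6 at 4Gy_48h and 27.7, 15.6 and 22.0 in control. Gusb had a fold change of 0.90 ± 0.20 (SE), adjusted p = 0.00106 over all genes and 0.0186 over known genes alone. Arsb, the sulfatase acting on dermatan sulfate, had 4.97, 8.40 and 8.36 CPM at 12Gy_48h, 9.82, 9.64 and 9.33 at 12Gy_24h, 4.41, 8.88 and 7.28 at 4Gy_48h and 4.73, 2.56 and 4.82 in control. Arsb had a fold change of 1.24 ± 0.31 (SE), adjusted p = 0.00276 over all genes and 0.0266 over known genes alone. The 12Gy_48h libraries of Arsb also lay above the controls, and those of Gusb overlapped them.

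At 24 h, 1 of 8 proton pump genes and 3 of 28 sorting and trafficking genes rose, against 9.15% of known genes that passed as higher among known genes alone. Atp6v0a1, the a1 subunit of the V-ATPase, had 20.9, 13.5 and 13.3 CPM at 12Gy_48h, 26.5, 28.1 and 30.9 at 12Gy_24h, 14.5, 13.6 and 15.1 at 4Gy_48h and 12.0, 10.8 and 16.9 in control. Atp6v0a1 had a fold change of 1.11 ± 0.20 (SE), adjusted p = 0.000189 over all genes and 0.00514 over known genes alone. Ap3m1, the medium subunit of AP-3, had 34.8, 33.1 and 37.9 CPM at 12Gy_48h, 52.5, 47.7 and 48.1 at 12Gy_24h, 34.5, 37.3 and 34.5 at 4Gy_48h and 37.0, 30.0 and 29.2 in control. Ap3m1 had a fold change of 0.62 ± 0.13 (SE), adjusted p = 0.000771 over all genes and 0.0391 over known genes alone. For both, 12Gy_24h lay above every other library. The clathrin light chains Clta and Cltb had fold changes of 0.59 ± 0.10 (adjusted p = 0.000121, and 0.0138 over known genes alone) and 0.62 ± 0.11 (0.000205 and 0.019). Tinagl1 had 251, 230.0 and 263 CPM at 12Gy_48h, 436, 459 and 458 at 12Gy_24h, 347, 374 and 306 at 4Gy_48h and 323, 192 and 256 in control. Tinagl1 had a fold change of 0.81 ± 0.14 (SE), adjusted p = 0.000194 over all genes and 0.0066 over known genes alone, and Fam189b had 0.75 ± 0.17 (0.00141 and 0.0349). Genes that passed over all genes alone included Cd63 (0.40 ± 0.084, 0.000753 and 0.198), the AP-1 subunit Ap1s1 (0.63 ± 0.15, 0.00208 and 0.0572), Ap3b1 (0.53 ± 0.14, 0.00582 and 0.164) and the acid phosphatase Acp2 (0.70 ± 0.20, 0.00819 and 0.111).

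Between 48 h and 24 h after the same 12 Gy, where dose does not differ, lysosome genes moved in both directions. In both fits 19 of 113 (16.8%) were higher at 12Gy_48h, against 9.97% of known genes over all genes and 11.1% among known genes alone, and 10 were lower, against 15.6% and 12.6%. Of all tested genes 20.6% were higher and 11.4% lower. The higher count depended on the libraries: over all genes it was 11, 4 and 8 without replicate 1, 2 or 3 of 12Gy_24h and 6 without replicate 2 of 12Gy_48h. Ctso and Tcirg1 were among those that rose with every library left out. Tinagl1, Asah1, Cd63, Ctsl, Atp6v0a1, Ap1s1, Ap3m1, Tmem147 and Gm49392 fell with every library left out. By role, 8 of 22 membrane proteins rose and 1 fell, and 5 of 9 proteases rose and 1 fell. Of 28 trafficking genes 2 fell, a smaller share than the 15.6% and 12.6% of known genes that were lower.

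Ctso overlapped its control libraries at 12Gy_48h, with a fold change from 12Gy_24h of 1.86 ± 0.35 (SE), adjusted p = 0.000467 over all genes and 0.000533 over known genes alone. Tcirg1 had 0.67 ± 0.15 (SE), adjusted p = 0.00337 over all genes and 0.00184 over known genes alone. The 12Gy_48h libraries of both genes lay above those of 12Gy_24h. Asah1, the acid ceramidase, had 76.1, 75.1 and 86.2 CPM at 12Gy_48h, 107, 129.5 and 153 at 12Gy_24h, 103, 71.6 and 106 at 4Gy_48h and 86.8, 98.6 and 115 in control. Asah1 had a fold change of -0.71 ± 0.16 (SE), adjusted p = 0.0039 over all genes and 0.0083 over known genes alone. Atp6v0a1 had -0.84 ± 0.19 (SE), adjusted p = 0.00388 over all genes and 0.00683 over known genes alone, opposite in sign to Tcirg1, so these 2 isoforms of 1 pump subunit moved in opposite directions. Cd63 had 966, 993 and 1022 CPM at 12Gy_48h, 1176, 1214 and 1305 at 12Gy_24h, 1059, 945 and 1092 at 4Gy_48h and 876, 959.8 and 956 in control. Cd63 had a fold change of -0.31 ± 0.084 (SE), adjusted p = 0.0104 over all genes and 0.0348 over known genes alone. The fold changes of Ctsl and Ap3m1 were -0.49 ± 0.13 (adjusted p = 0.00872, and 0.0182 over known genes alone) and -0.49 ± 0.13 (0.00909 and 0.0156). Ap1s1 had 169, 168 and 162 CPM at 12Gy_48h, 259, 252 and 275 at 12Gy_24h, 165, 162 and 168 at 4Gy_48h and 223, 127 and 155 in control. Ap1s1 had a fold change of -0.65 ± 0.15 (SE), adjusted p = 0.00369 over all genes and 0.00541 over known genes alone, and replicate 1 of control was close to the 12Gy_24h level. Tinagl1 (-0.86 ± 0.14, 0.000347 and 0.000398), Tmem147 (-0.64 ± 0.11, 0.000387 and 0.000615) and Gm49392 (-0.91 ± 0.21, 0.00327 and 0.00575) fell as well.

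Those that rose also included 9 of the genes that also rose against control: Mcoln1 (0.74 ± 0.19, adjusted p = 0.00697), Npc1 (0.77 ± 0.21, 0.0116), Gla (0.64 ± 0.18, 0.0127), Lipa (0.61 ± 0.22, 0.0435), Cd68 (0.61 ± 0.20, 0.0303), Cln3 (0.59 ± 0.15, 0.00605), Ctsa (0.53 ± 0.13, 0.0049), Ctsd (0.33 ± 0.10, 0.0229) and Npc2 (0.32 ± 0.11, 0.028), all from edgeR over all genes. Both comparisons use the 12Gy_48h libraries. Lamp1 (0.33 ± 0.11, 0.025), Tpp1 (0.45 ± 0.12, 0.0107) and Atp6v0a2 (0.41 ± 0.14, 0.0385) rose too. So did Slc17a5, the sialic acid exporter, Scarb2, a lysosomal membrane protein that also carries an enzyme to lysosomes, the aspartic protease Napsa and Tom1l2, which are named here after their values were seen. Each of these lost its call without some library: Mcoln1 only without replicate 3 of 12Gy_24h (adjusted p = 0.0686), Ctsa only without replicate 2 of 12Gy_24h (0.0571), and Cln3 and Tpp1 without replicate 2 of 12Gy_24h or of 12Gy_48h (up to 0.0562 and 0.117). The others lost it without 3 or more of the 6 libraries. Gusb fell (-0.66 ± 0.19 (SE), adjusted p = 0.016 over all genes and 0.0212 over known genes alone) but not without replicate 1 or 2 of 12Gy_48h, with adjusted p up to 0.0609.

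**Figure D5:**
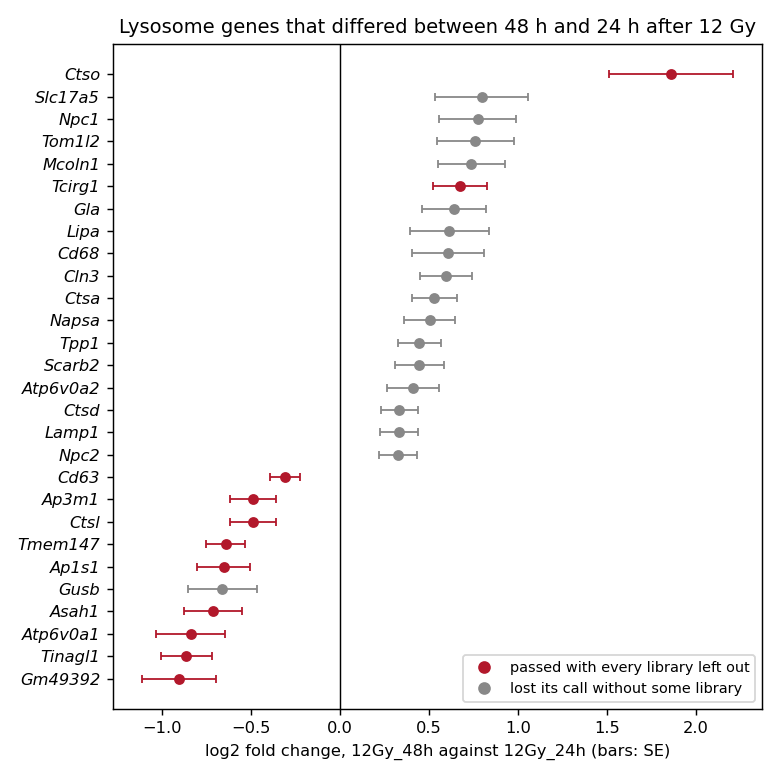
Log2 fold changes with SE (x axis) of 28 lysosome genes that passed in both fits between 12Gy_48h and 12Gy_24h, ordered by size. Positive values mean higher at 12Gy_48h: 18 genes lie right of 0 with Ctso the farthest at 1.86, and 10 lie left of 0, and dark red marks the 11 genes that passed with every library left out.

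After 4 Gy the lysosome genes changed little by 48 h. Over all genes 5 of 113 (4.42%) passed as higher and 0 as lower, against 6.21% and 0.877% of known genes and 4.53% and 13% of all tested genes, and among known genes alone 1 (0.885%) and 0 passed, against 0.754% and 0.57%. The 1 gene was Ctsl, which averaged 3033 ± 302 CPM at 4Gy_48h and 1882 ± 258 in control (SD, n = 3 each), a fold change of 0.69 ± 0.13 (SE), adjusted p = 0.00165 over all genes and 0.0437 over known genes alone. It passed with every library left out. For the count of 0 lower in edgeR, 2 genes had an unadjusted p under 0.05 over all genes and 5 among known genes alone, and DESeq2 also called 0. The other 4 passed over all genes alone: Tcirg1 (0.75 ± 0.16, adjusted p = 0.00361, and 0.0577 over known genes alone), Ctsa (0.44 ± 0.13, 0.0281 and 0.284), Gusb (0.59 ± 0.20, 0.0482 and 0.273) and Ap3d1 (0.48 ± 0.16, 0.0452 and 0.318). The count of 5 was 3 without replicate 1 or 2 of 4Gy_48h or replicate 2 of control, and 2 without replicate 3 of control. Ctsa lost its call without replicate 1 or 3 of 4Gy_48h or replicate 3 of control (adjusted p up to 0.0856), Gusb without replicate 1 or 2 of 4Gy_48h or 2 or 3 of control (up to 0.23), and Ap3d1 without any library except replicate 1 of 4Gy_48h (up to 0.161).

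Comparing the doses at 48 h, where time does not differ, 8 of 113 lysosome genes (7.08%) were higher at 12Gy_48h than at 4Gy_48h and 0 were lower, against 2.79% and 1.55% of known genes and 2.19% and 2.49% of all tested genes. Beside the count of 0 lower in edgeR, 3 genes were lower at an unadjusted p under 0.05 and DESeq2 called 1. Among known genes alone 8 were higher and 1 lower, against 2.91% and 3.22%. The 7 that rose in both fits were Cd68, Ctsd, Ctsa, Cln3, Gla, Smpd1 and Atp6v0d1. All had 12Gy_48h libraries above the 4Gy_48h libraries, which follows in large part from picking them by this comparison. Cd68 averaged 35.0 ± 2.16 CPM at 12Gy_48h and 12.5 ± 2.34 at 4Gy_48h (SD, n = 3 each), with 1.48 ± 0.22 (SE), adjusted p = 0.0028 over all genes and 0.00196 over known genes alone. Ctsd averaged 376 ± 22.4 CPM at 12Gy_48h and 242 ± 26.6 at 4Gy_48h (SD, n = 3 each), with 0.64 ± 0.10 (SE), adjusted p = 0.00467 over all genes and 0.00477 over known genes alone. Both passed with every library left out. Smpd1 had 22.5, 28.3 and 27.2 CPM at 12Gy_48h, 22.8, 21.2 and 20.7 at 12Gy_24h, 16.9, 15.8 and 17.8 at 4Gy_48h and 21.1, 21.3 and 16.3 in control. Smpd1 had a fold change of 0.63 ± 0.15 (SE), adjusted p = 0.0299 over all genes and 0.0296 over known genes alone. Atp6v0d1, a peripheral subunit that ties the V-ATPase stalk to the membrane, had 65.4, 59.9 and 54.4 CPM at 12Gy_48h, 51.0, 52.9 and 60.1 at 12Gy_24h, 37.9, 38.0 and 43.4 at 4Gy_48h and 44.1, 44.8 and 49.6 in control. Atp6v0d1 had a fold change of 0.59 ± 0.13 (SE), adjusted p = 0.017 over all genes and 0.0177 over known genes alone. In these last 2 genes and in Cd68, 4Gy_48h was the lowest group on average, and for Cd68 and Atp6v0d1 its 3 libraries lay below the 3 controls. Cln3 (0.76 ± 0.15, adjusted p = 0.0106), Gla (0.67 ± 0.18, 0.0413) and Ctsa (0.50 ± 0.13, 0.0325) rose as well.

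Leaving out a library lowered the dose count of 8 to 3 without any replicate of 4Gy_48h, to 4 without replicate 1 or 3 of 12Gy_48h and to 2 without replicate 2 of 12Gy_48h. Gla and Ctsa lost their calls without any 1 of the 6 libraries (adjusted p up to 0.195 and 0.128). Smpd1 kept its call only without replicate 1 of 12Gy_48h (up to 0.138). Cln3 lost it without replicate 3 of 4Gy_48h or replicate 2 of 12Gy_48h (up to 0.0759), and Atp6v0d1 without replicate 1 or 2 of either group (up to 0.0768). Npc2 passed over all genes alone (0.39 ± 0.11, 0.0467, and 0.0516 over known genes alone) and lost its call without any 1 library. Tinagl1, the gene that was lower among known genes alone (-0.50, adjusted p = 0.0353), had 0.0721 over all genes.

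Genes that act with the lysosome but stand outside the KEGG map were compared from 4 lists. Of 37 tested autophagy genes, 12 passed as higher at 12Gy_48h against control over all genes and 4 among known genes alone, against 18.2% and 6.76% of known genes, with a median fold change of 0.37 beside 0.20 for all tested known genes. The 4 were Atg2a, the lipid transfer protein of the growing autophagosome, with 22.5, 30.8 and 18.6 CPM at 12Gy_48h, 11.9, 11.0 and 9.63 at 12Gy_24h, 10.9, 11.4 and 11.6 at 4Gy_48h and 10.3, 14.9 and 9.64 in control and 1.05 ± 0.21 (SE), adjusted p = 0.00116 over all genes and 0.00889 over known genes alone, Uvrag (1.06 ± 0.23, 0.00193 and 0.0128), the conjugation enzyme Atg7 (0.70 ± 0.14, 0.0016 and 0.0254) and Map1lc3b, the LC3B of autophagosome membranes (0.60 ± 0.12, 0.00134 and 0.0207). At 12Gy_24h against control 5 of the 37 passed as higher and 1 as lower over all genes, and 1 and 2 among known genes alone, which is a smaller share higher than that of known genes (26.5% and 9.15%). At 4Gy_48h none passed in edgeR in either fit or in DESeq2, with 1 higher at an unadjusted p under 0.05 over all genes and 4 lower among known genes alone. Between 12Gy_48h and 12Gy_24h, 10 were higher and 2 lower over all genes and 11 were higher among known genes alone, against 9.97% and 11.1% of known genes higher, led by Atg13, a subunit of the kinase complex that starts autophagy, with 22.0, 32.1 and 22.2 CPM at 12Gy_48h, 11.4, 8.82 and 10.5 at 12Gy_24h, 16.9, 10.9 and 13.2 at 4Gy_48h and 14.6, 17.2 and 15.5 in control and 1.31 ± 0.21 (SE), adjusted p = 0.000204 over all genes and 0.000165 over known genes alone.

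Among 33 tested lysosomal genes outside the map, 11 were higher and 1 lower at 12Gy_48h against control over all genes, and 4 and 1 among known genes alone, against 18.2% and 6.76% of known genes higher, with a median of 0.34. At 12Gy_24h against control 10 were higher and 1 lower over all genes and 3 and 5 among known genes alone, against 26.5% and 9.15% of known genes higher. Grn, the progranulin that lysosomes process, had 219.8, 242 and 207 CPM at 12Gy_48h, 129.5, 129.8 and 134 at 12Gy_24h, 173, 151 and 179.9 at 4Gy_48h and 157, 147 and 147 in control. Grn had a fold change of 0.56 ± 0.10 (SE), adjusted p = 0.000686 over all genes and 0.0188 over known genes alone. Gpnmb, a glycoprotein of lysosomes and melanosomes, had 281, 316 and 281 CPM at 12Gy_48h, 164, 162 and 174 at 12Gy_24h, 266, 210.2 and 239 at 4Gy_48h and 184, 192 and 195 in control. Gpnmb had a fold change of 0.62 ± 0.11 (SE), adjusted p = 0.000344 over all genes and 0.00921 over known genes alone. Both were highest at 12Gy_48h, and against 12Gy_24h their fold changes were 0.76 ± 0.10 (adjusted p = 7.08e-05) and 0.81 ± 0.11 (4.18e-05). Lgals3, a lectin that gathers on damaged lysosomes, had 641, 602 and 681 CPM at 12Gy_48h, 856, 776 and 852 at 12Gy_24h, 650.1, 565 and 563 at 4Gy_48h and 473, 384 and 404 in control. It resembled Ctsl in that all irradiated libraries lay above control and 12Gy_24h was highest, with 0.98 ± 0.10 (SE), adjusted p = 8.46e-07 over all genes and 7.65e-05 over known genes alone at 12Gy_24h and 0.61 ± 0.10 (SE), adjusted p = 0.000273 over all genes and 0.00598 over known genes alone at 12Gy_48h. The peptidase Cpq had 1.07 ± 0.16 at 12Gy_24h (3.44e-05 and 0.00168) and 0.98 ± 0.16 at 12Gy_48h (0.000231 and 0.00283). Arl8a, a small GTPase that moves lysosomes along microtubules, had 50.5, 60.6 and 37.1 CPM at 12Gy_48h, 25.5, 21.5 and 21.0 at 12Gy_24h, 31.9, 36.5 and 34.3 at 4Gy_48h and 37.2, 35.1 and 34.8 in control: it fell at 12Gy_24h against control (-0.65 ± 0.17 (SE), adjusted p = 0.00396 over all genes and 0.00147 over known genes alone) and was higher at 12Gy_48h than at 12Gy_24h (1.12 ± 0.17 (SE), adjusted p = 0.000122 over all genes and 9.13e-05 over known genes alone).

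The transcription factors of the CLEAR element did not pass in both fits. Tfeb had 6.80, 5.09 and 6.27 CPM at 12Gy_48h, 4.25, 4.96 and 7.00 at 12Gy_24h, 6.49, 7.40 and 7.55 at 4Gy_48h and 6.88, 3.84 and 5.09 in control, and its fold change at 12Gy_48h against control was 0.18 ± 0.27 (SE, adjusted p = 0.634). Tfe3 had 13.1, 11.0 and 9.67 CPM at 12Gy_48h, 9.02, 7.44 and 10.8 at 12Gy_24h, 6.49, 9.38 and 9.17 at 4Gy_48h and 7.74, 7.94 and 7.50 in control, with 0.54 ± 0.22 (adjusted p = 0.0644). Mitf passed at 12Gy_24h over all genes alone (0.76 ± 0.29, 0.0388 and 0.227). These factors are regulated largely by their location in the cell, which RNA levels do not show. Of the 21 tested genes of this family and of the mTORC1 machinery on the lysosome, 1 passed as higher at 12Gy_48h and 2 at 12Gy_24h against control over all genes, against 18.2% and 26.5% of known genes. Among known genes alone these calls were lost and 1 gene was lower at 12Gy_24h. Between 12Gy_48h and 12Gy_24h 2 rose, Tsc2, a subunit of the complex that restrains mTORC1 (0.48 ± 0.15, 0.0249 and 0.0162, lost without replicate 2 or 3 of 12Gy_24h or replicate 1 or 2 of 12Gy_48h), and Rragc, a Rag GTPase (0.59 ± 0.14 (SE), adjusted p = 0.00547 over all genes and 0.00339 over known genes alone). Of 7 tested V1 subunits, the cytosolic part of the pump, 2 were higher at 12Gy_48h against control over all genes, against 18.2% of known genes, and 1 was lower among known genes alone, with a median of 0.18 over all genes. Atp6v1c1 was lower at 12Gy_48h than at 12Gy_24h, as Atp6v0a1 was, with 113, 116 and 118 CPM at 12Gy_48h, 166, 162 and 172 at 12Gy_24h, 112, 114 and 123 at 4Gy_48h and 121, 119 and 127 in control and -0.53 ± 0.098 (SE), adjusted p = 0.000803 over all genes and 0.00177 over known genes alone.

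Exons of several of these genes overlap those of a gene on the other strand in the GENCODE annotation of GRCm38, among them Ctsa with Neurl2, Cln3 with Apobr, Npc1 with Rmc1, Ctsb with Fdft1, Ap3m1 with Vcl and Lamp1 with Grtp1. The sources used here do not give the strand setting of the counting, so reads of such partners may be included. Gm49392 overlaps Ctla2b and other predicted genes on its own strand, and its values are uncertain for the same reason.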

How the data were processed

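RNA of 12 libraries was sequenced, in 4 groups of 3 named by the labels. Per the labels' protocols libraries followed an Illumina protocol, and the submitters' processing notes name cutadapt 1.9 and FastQC. Not given in the sources used here are platform, aligner, genome build, annotation version and strand setting. New loci in the table have IDs that start with ONT, although the labels cite an Illumina protocol, so the kind of read behind a count is not settled. Whole-number counts were deposited: the authors' table gives read counts per gene and library beside CPM that they had computed from each column's total. The deposited CPM differed from values recomputed here by at most 4.78e-06 and were not tested. The table also holds the authors' DESeq2 fold changes and FDR, which were not used. Of 33636 lines 11 were overflow of long cells and were dropped.

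The quasi-likelihood F test of edgeR 4.0.16 (R 4.3.3) was run on the counts of all 12 libraries with 1 mean per group, after filterByExpr and TMM scaling, and covered 15086 genes with a biological coefficient of variation of 0.144. Adjusted p-values (Benjamini-Hochberg, all genes of the fit) under 0.05 passed. CPM in the text are CPM after TMM scaling. The fit was tested on simulated data. Precision is limited by 3 libraries a group and totals of 3616416 to 4831641 reads, and the SE covers counting error and the spread between these libraries only. Alternatives were known genes scaled and tested alone, RLE scaling, no filter, 2 groups only, a replicate block, DESeq2 1.42.0 and leaving out each library.

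The members, role groups, gene lists and tests were chosen with earlier results of these data known. Named genes were, in each of 9 role groups, up to 6 tested members with the smallest adjusted p over the 5 comparisons, 18 well-known members wherever tested and any member passing in opposite directions against control; from each of 4 outside lists up to 6 genes by the same rule and Tfeb, Tfe3 and Mitf. Promoter windows come from RefSeq (GRCm38.p6) and gene positions from GENCODE (GRCm38). Beside the markers in the report, 3 endothelial and 3 Paneth cell markers had at most 3 reads each over all libraries. Some genes of these groups enter the counts and are not reported here by name.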

Additional observations from a re-analysis of the deposited data

Results flagged for a closer look

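Between 12Gy_48h and 12Gy_24h the levels of 8 lysosome genes given here differed by a direct test. In each, the fold change between these groups was at least 1.5-fold and passed over all genes and known genes alone and with every library left out. No control was labelled with either time, so a change in the response to 12 Gy and time in culture cannot be told apart here. Higher at 12Gy_48h were Ctso (log2 fold change 1.86) and Tcirg1 (0.67). Lower at 12Gy_48h were Gm49392 (-0.91), Tinagl1 (-0.86), Atp6v0a1 (-0.84), Asah1 (-0.71), Ap1s1 (-0.65) and Tmem147 (-0.64). Between the doses at 48 h, Cd68 (1.48) and Ctsd (0.64) were higher at 12Gy_48h than at 4Gy_48h by the same test.

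Outside the 179 genes, 6 new loci carry a lysosome annotation in the table. ONT.16605, annotated as a 16 kDa proteolipid subunit of the V-ATPase, was higher at 12Gy_48h than in control, with 53.9, 55.5 and 60.1 CPM at 12Gy_48h and 21.3, 25.9 and 18.0 CPM in control (log2 fold change 1.38 ± 0.23 (SE), edgeR adjusted p = 0.000271, passing with every library left out). By the same test ONT.16605 also passed as higher than control at 12Gy_24h (0.68 ± 0.23, adjusted p = 0.0238) and 4Gy_48h (0.73 ± 0.23, 0.0404). Both of these calls were lost without some library. Whether its reads belong to Atp6v0c, the known gene of that subunit, was not tested.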

How the results depend on the processing

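Counts of lysosome genes that passed, against control unless another group is named, moved by over 1.5 times under these settings, and the cause was not tested. The ranges with 1 library left out are an exception: they are given in full and include counts that moved by less. Known genes alone gave 10 higher and 4 lower at 12Gy_24h, 16 higher at 12Gy_48h, 1 higher at 4Gy_48h and 1 lower at 12Gy_48h against 4Gy_48h. DESeq2 gave 1 lower at 12Gy_48h, 2 higher at 4Gy_48h, 9 higher at 12Gy_48h against 12Gy_24h and 1 lower at 12Gy_48h against 4Gy_48h. RLE scaling gave 3 higher at 4Gy_48h. No filter gave 0 lower at 12Gy_48h and 1 lower against 4Gy_48h. Fitting 2 groups only gave 1 lower at 12Gy_48h, 3 higher at 4Gy_48h and 1 lower at 12Gy_48h against 4Gy_48h. The replicate block gave 3 higher at 4Gy_48h and 5 higher at 12Gy_48h against 4Gy_48h. Over the tested genes, same-numbered libraries deviated together by correlations of -0.111 to 0.125. The labels do not say whether they share more than a number. Leaving out 1 library gave 27 to 37 higher and 0 to 1 lower at 12Gy_48h, 36 to 46 and 1 to 3 at 12Gy_24h (2 lower without replicate 3 of 12Gy_24h and 3 without replicate 1 of control), 2 to 7 and 0 at 4Gy_48h, 4 to 19 and 9 to 13 at 12Gy_48h against 12Gy_24h, and 2 to 4 and 0 against 4Gy_48h. For the genes taken by the naming rule from the lysosome genes and the 4 outside lists, 144 pairs of gene and comparison passed over all genes, and of these 93 passed with known genes alone, 117 in DESeq2, 131 with RLE scaling, 131 without filter, 132 with 2 groups only and 130 with the block, and none turned its direction in these fits. At this depth the 66 untested genes cannot be judged.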

Other observations

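Summed over the 51 genes that carry the annotation by sequence similarity, the level was 648, 648 and 669 CPM at 12Gy_48h, 921, 945 and 966 at 12Gy_24h, 751, 785 and 687 at 4Gy_48h and 689, 569.5 and 645 in control. The 12Gy_24h libraries stood above all others, while 12Gy_48h overlapped control. Much of this sum was Tinagl1, described above, which had the most reads of these genes in every library and was itself highest at 12Gy_24h. How the other genes summed without Tinagl1 was not examined. The lead of the 12Gy_24h libraries was not particular to these genes. It was also seen in the summed level of sorting and trafficking genes and of all lysosome genes together, but not in that of sulfatases. No test was run on these sums.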
